A study of Rattus norvegicus with 12 samples.

Results

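The drug-metabolizing cytochrome P450 genes of families 1 to 3 were examined in rat liver, with the reductase Por and the xenobiotic receptors Nr1i2 and Nr1i3. Members were taken by gene symbol from the platform's annotation of an Affymetrix rat array, which reads each gene through 1 or more probe sets (short probes for the same RNA). Of 14217 genes with 1 symbol, 35 were members, through 38 probe sets. Livers came from male Sprague Dawley rats aged 9 weeks. The rats had eaten for 28 days either a purified AIN-93G control diet, that diet with 0.1% wakame powder, or that diet with 1% wakame powder. The seaweed is a brown alga that people eat. From every diet 4 arrays were made, each of a separate animal. As 6 rats per diet shared cages of 3, effects of the cage cannot be told apart from those of diet. The p-values weigh differences between diets against the spread among these animals, which were treated as independent.

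A probe set was counted as measured when its standard deviation (SD) over the 12 arrays was above 0.01 on the log2 scale. By this limit 26 members were measured, through 28 probe sets, and 9 were not. The 9 were Cyp1a1, Cyp1b1, Cyp2a3, Cyp2b12, Cyp2b21, Cyp2f4, Cyp2g1, Cyp2j10 and Cyp2s1, and a second probe set of Por was flat too. The highest SD of a flat member was 3.16e-09 (Cyp2f4) and the lowest SD of a measured member was 0.0275 (Nr1i2). How the flat values arose is not given in the sources used here, so they say nothing about whether those RNAs differed. Of the 9 unmeasured genes, 7 had a mean over the 12 arrays below the arrays' median of 6.59, and by that mean none of the 28 measured probe sets did. Another 3 probe sets were listed under several P450 symbols and were not used here.

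Cytochrome P450 enzymes are haem proteins of the endoplasmic reticulum that insert oxygen into drugs, steroids, fatty acids and plant compounds. All microsomal P450s of these families draw their electrons from one flavoprotein, the NADPH-dependent reductase encoded by Por. The receptors CAR (Nr1i3) and PXR (Nr1i2) sense foreign compounds and bile acids and switch on family 2 and 3 genes as partners of RXR, while the Ah receptor acts on family 1. In the rat several of the genes are strongly sex-biased, since the male liver sees growth hormone in pulses and the female liver sees it almost continuously.

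Promoter windows of 300 bases, from 250 before to 50 after the start site, were found in RefSeq for 24 of the 26 measured genes (assembly GRCr8). They are printed for 7 members, namely the receptor and the reductase that lay higher in the 1% diet, a pair of neighbouring Cyp2c genes that differed widely in spread, and the 3 Cyp3a genes that were low together in 1 liver. Capitals mark matches, on either strand, to short motifs named below.
Nr1i3, chr13:86165170-86165469 of GRCr8, plus strand: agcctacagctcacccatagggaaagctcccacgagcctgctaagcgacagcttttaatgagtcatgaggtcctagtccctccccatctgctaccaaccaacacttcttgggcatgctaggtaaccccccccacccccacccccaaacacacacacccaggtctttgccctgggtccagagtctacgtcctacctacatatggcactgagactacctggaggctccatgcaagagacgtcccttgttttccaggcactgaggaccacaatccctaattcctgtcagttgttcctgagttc
Por, chr12:26635760-26636059 of GRCr8, minus strand: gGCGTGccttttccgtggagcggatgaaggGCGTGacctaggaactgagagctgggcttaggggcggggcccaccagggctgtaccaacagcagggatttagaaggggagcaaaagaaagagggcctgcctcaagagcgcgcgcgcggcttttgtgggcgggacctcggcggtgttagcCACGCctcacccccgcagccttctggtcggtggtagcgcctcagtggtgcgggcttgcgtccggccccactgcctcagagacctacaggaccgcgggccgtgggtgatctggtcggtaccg
Cyp2c12, chr1:248676985-248677284 of GRCr8, minus strand: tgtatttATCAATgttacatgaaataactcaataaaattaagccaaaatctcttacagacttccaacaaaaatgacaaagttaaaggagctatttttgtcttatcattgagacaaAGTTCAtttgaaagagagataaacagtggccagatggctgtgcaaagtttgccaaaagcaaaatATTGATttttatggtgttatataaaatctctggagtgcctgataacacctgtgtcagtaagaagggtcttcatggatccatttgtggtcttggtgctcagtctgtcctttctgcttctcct
Cyp2c13, chr1:248787139-248787438 of GRCr8, minus strand: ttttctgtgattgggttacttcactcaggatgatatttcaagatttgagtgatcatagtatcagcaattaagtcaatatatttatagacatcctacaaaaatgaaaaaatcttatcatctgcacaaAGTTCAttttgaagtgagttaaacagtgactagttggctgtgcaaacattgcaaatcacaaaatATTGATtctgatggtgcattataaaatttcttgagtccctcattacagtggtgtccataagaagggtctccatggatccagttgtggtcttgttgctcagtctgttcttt
Cyp3a18, chr12:13994062-13994361 of GRCr8, plus strand: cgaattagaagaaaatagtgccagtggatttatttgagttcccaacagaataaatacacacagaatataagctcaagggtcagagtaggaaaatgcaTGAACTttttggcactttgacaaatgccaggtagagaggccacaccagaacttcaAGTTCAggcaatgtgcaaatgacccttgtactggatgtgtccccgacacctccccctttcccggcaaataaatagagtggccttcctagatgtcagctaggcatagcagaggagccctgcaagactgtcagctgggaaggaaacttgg
Cyp3a2, chr12:14343808-14344107 of GRCr8, minus strand: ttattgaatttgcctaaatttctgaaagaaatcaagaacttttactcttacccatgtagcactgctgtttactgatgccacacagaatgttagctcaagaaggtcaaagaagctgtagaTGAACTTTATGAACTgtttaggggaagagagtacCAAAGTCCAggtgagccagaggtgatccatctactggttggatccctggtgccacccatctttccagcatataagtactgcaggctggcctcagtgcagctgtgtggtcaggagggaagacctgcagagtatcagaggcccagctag
Cyp3a23-3a1, chr12:14398754-14399053 of GRCr8, minus strand: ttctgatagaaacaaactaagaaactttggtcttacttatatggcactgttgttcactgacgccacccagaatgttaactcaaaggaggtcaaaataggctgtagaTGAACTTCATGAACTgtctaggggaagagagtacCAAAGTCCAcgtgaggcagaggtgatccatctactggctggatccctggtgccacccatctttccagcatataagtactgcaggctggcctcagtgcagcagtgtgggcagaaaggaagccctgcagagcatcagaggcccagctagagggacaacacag

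The motifs were searched on both strands in all 33469 RefSeq windows of that length, and a match is a description of letters only. AGTTCA, the half-site read by CAR, PXR and related receptors, was in 10 of the 24 member windows and in 14.5% of all windows. Its direct repeat with a 3-base gap, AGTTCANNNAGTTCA, which overlaps that motif by construction, was in 2 windows of the whole set, those of Cyp3a2 and Cyp3a23-3a1. Such a repeat is the form of site through which PXR is known to act on rat Cyp3a genes. The same pair also held CAAAGTCCA, an HNF4A motif found in 0.391% of all windows. Without gaps, 209 of 287 aligned bases (72.8%) were identical between the Cyp3a2 and Cyp3a23-3a1 windows.

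ATTGAT, the core bound by the hepatocyte factor HNF6, was in 4 member windows (Cyp1a2, Cyp2c7, Cyp2c12 and Cyp2c13) and in 8.06% of all windows. The Cyp2c12 window held it at 2 places, starting at -243 and -71 from the start site. Cyp2c12 and Cyp2c13 matched at 187 of 289 aligned bases (64.7%). The Ah receptor core GCGTG was in 3 member windows, of Por, Cyp2t1 and Cyp2u1, against 29.7% of all windows, and the STAT5 motif TTCNNNGAA was in 2, of Cyp2j4 and Cyp2t1, against 8.87%. TTANGTAA, the motif of the clock-driven factors DBP, TEF and HLF, was in none of the 24 and in 2.24% of all windows.

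The deposited values were log2 values of 31099 probe sets, from 3.15 to 14.61, and arrays of one diet correlated at 0.911 to 0.961 over the 3240 probe sets that varied. Of the hepatocyte markers on the array, all 6 lay above the arrays' median, with albumin (Alb) at 14.61. Of these 6, 3 varied, and the rest, Alb included, were flat, with values whose origin is not given. Cholangiocyte markers had 1 of 3 above the median, lymphocyte markers 1 of 4, Kupffer cell markers 5 of 5, endothelial markers 4 of 5 and stellate cell markers 6 of 7. Only varying markers were tested. These were 1 lymphocyte, 4 Kupffer cell, 2 endothelial and 4 stellate cell markers, and no cholangiocyte marker. None of them passed the test in any comparison, which says nothing about the flat markers. With 1% wakame all 4 tested stellate cell markers lay higher than control, at a median difference of 0.22 log2. RNA integrity was gauged from a gene's 3-prime minus its 5-prime probe set. For Gapdh this gave 1.05 ± 0.01 log2 in control, 1.08 ± 0.10 with 0.1% and 1.21 ± 0.16 with 1% wakame (SD, n = 4 each). For the actin gene Actb it gave 2.31 ± 0.13, 2.25 ± 0.15 and 2.38 ± 0.07 in the same order. Only the Gapdh difference was added to a fit, as given below. In bulk liver, fewer cells of a type and less RNA per cell cannot be told apart.

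No member changed with diet by the test across all varying probe sets. The moderated test of limma called 0 of the 28 member probe sets for 1% wakame against control, where 1.67% of all varying probe sets were called at an adjusted p under 0.05. It called 0 of 28 for 0.1% wakame against control (0.0617% of all), 0 for 1% against 0.1% (0% of all) and 0 in an F-test over the 3 diets (0.185% of all). At an unadjusted p under 0.05 there were 5 member probe sets for 1% against control, all higher, where 18.5% of all varying probe sets passed in either direction and 8.4% upward. There were 3 for 0.1% against control, all higher (11.5% of all in either direction, 4.72% upward), 1 for 1% against 0.1%, lower (6.76% and, downward, 3.06%), and 2 in the F-test, Cyp2d3 and Nr1i3 (14.2% of all). Without regard to direction these counts lay near or below the background.

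The direction in the 1% diet was mostly upward, though for only 15 of the 28 member probe sets did the sign hold in every alternative fit. Of the 28 member probe sets, 23 lay higher than control, where 44.9% of all varying probe sets did, and the median difference was 0.10 log2 for the members and -0.02 for all. With 0.1% wakame 17 of 28 lay higher (44.1% of all), with a median of 0.04, and 21 of 28 lay higher with 1% than with 0.1% (49% of all). The diets of 1% wakame and control did not overlap in 4 member probe sets, all higher, against 5.22% of all varying probe sets in that direction and 6.05% downward. For 0.1% wakame and control all 28 overlapped, where 5.86% of all varying probe sets did not. The 4 were Nr1i3, Nr1i2, Por and Cyp2d3. Both wakame diets were compared with the same control livers.

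**Figure D1:**
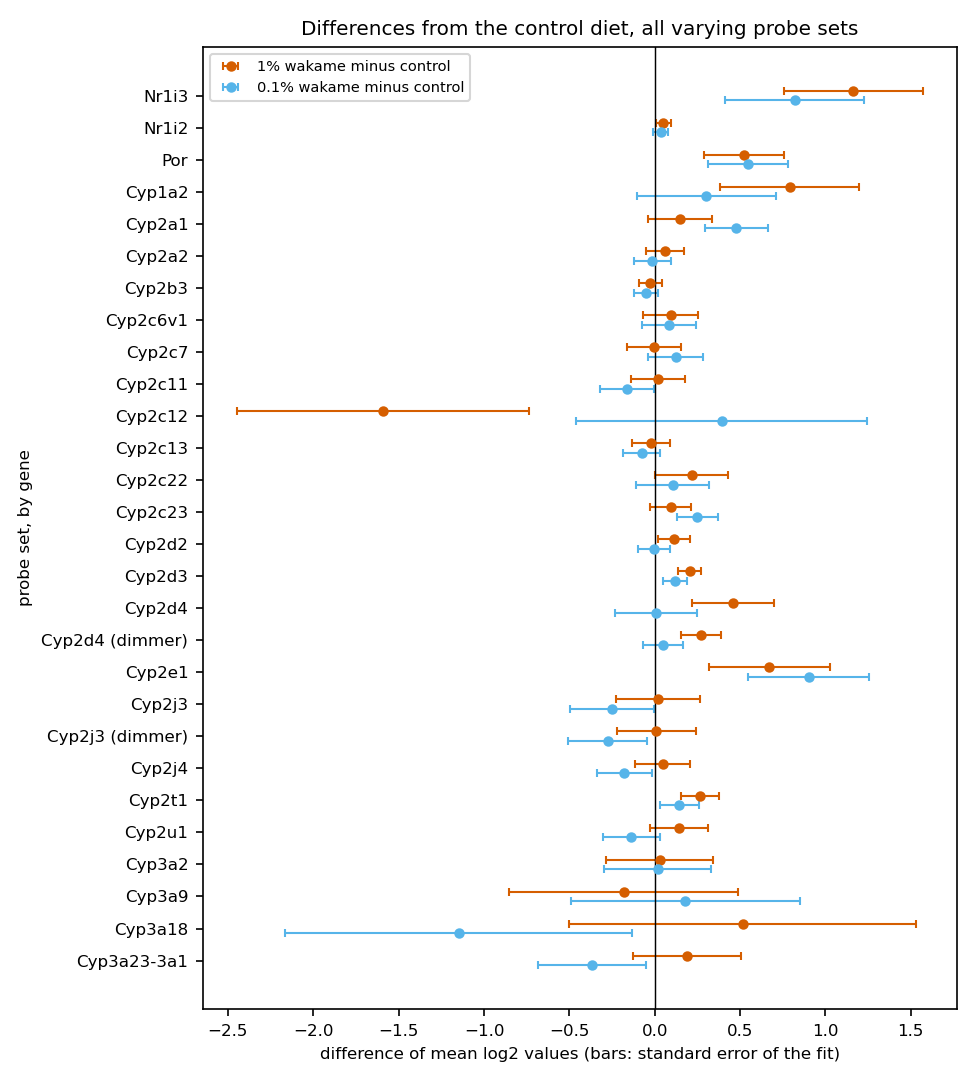
Difference of mean log2 values from the control diet for the 28 varying probe sets of the 26 measured genes, with orange for 1% wakame and blue for 0.1% wakame, points for the difference and bars for its standard error in the fit. Nr1i3 lies farthest to the right with 1% wakame, at 1.16, and Cyp2c12 farthest to the left, at -1.59, and none of the 28 passed the test.

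Nr1i3 encodes CAR, the receptor through which phenobarbital-like compounds induce Cyp2b and other genes. Its probe set (1368797_at) read 7.23, 6.43, 7.27 and 6.57 log2 in the control livers, 7.41, 6.93, 7.85 and 8.59 with 0.1% wakame and 8.65, 8.60, 7.35 and 7.57 with 1% wakame. All 4 livers of the 1% diet lay above every control, and 3 of the 4 of the 0.1% diet did. The difference of 1% from control was 1.16 ± 0.41 log2 (SE), 2.24-fold, and the largest upward difference among the members, but it did not pass (adjusted p = 0.175). That of 0.1% from control was 0.82 ± 0.41 (adjusted p = 0.492) and 0.52 without 0.1% wakame 4 (adjusted p = 0.840), and the 2 wakame diets differed by 0.34 ± 0.41 (adjusted p = 0.941). With the Gapdh difference added to the fit, the value for 1% against control was 0.84 (adjusted p = 0.575). In control 2 and control 4 the signal was under 6.59, the median over all probe sets, and whether it exceeded background cannot be read from log2 values alone.

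Nr1i2 encodes PXR, the receptor that governs Cyp3a genes. Its values (1369270_at) ran from 8.26 to 8.31 in control, from 8.31 to 8.33 with 0.1% and from 8.31 to 8.35 with 1% wakame. The whole range over the 12 livers was 0.09 log2, so that the lowest and highest livers differed by 1.07-fold. The 1% diet lay above control by less than the printed digits show (8.31 in control 1 and in 1% wakame 4), and the difference was 0.05 ± 0.04 (adjusted p = 0.574). It was the member with the least spread between livers of one diet, at an SD of 0.02. Only 0.586% of all varying probe sets had less.

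Por is the electron donor of all the enzymes below. Its varying probe set (1387109_at) read 7.73, 7.92, 7.88 and 7.83 in control, 8.88, 7.60, 8.52 and 8.55 with 0.1% wakame and 8.71, 8.33, 8.08 and 8.33 with 1% wakame. All 4 livers of the 1% diet and 3 of 4 of the 0.1% diet lay above every control, and the remaining one, 0.1% wakame 2, was the lowest of all 12. The difference was 0.52 ± 0.23 log2 (1.44-fold, adjusted p = 0.268) for 1% and 0.55 ± 0.23 (1.46-fold, adjusted p = 0.403) for 0.1% wakame, and the doses differed by -0.03 ± 0.23. Without 0.1% wakame 2, the value for that diet was 0.81 (adjusted p = 0.138).

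**Figure D2:**
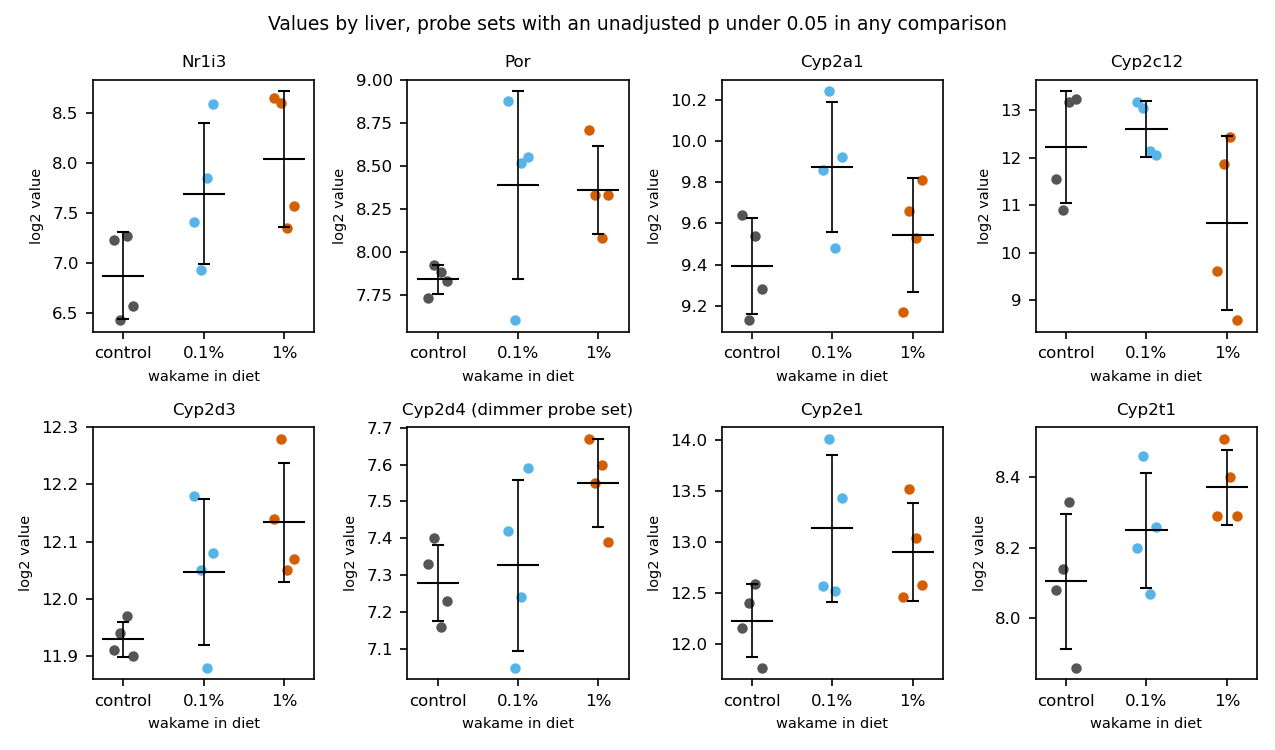
Log2 value of each liver (points) by diet for the 8 probe sets with an unadjusted p under 0.05 in any pairwise comparison, with the mean as a line and 1 SD as bars, 4 livers per diet, each panel on its own scale. For Nr1i3, Por and Cyp2d3 every 1% liver lies above every control liver, and for the other 5 probe sets the diets overlap.

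Of family 1, Cyp1a2 was measured, while Cyp1a1 and Cyp1b1 were flat. Cyp1a2 is the caffeine-oxidizing enzyme of the liver and an Ah receptor target. It read 10.22, 9.66, 11.14 and 9.01 in control, 10.68, 10.46, 9.75 and 10.35 with 0.1% and 11.16, 11.13, 10.61 and 10.28 with 1% wakame. The controls spanned nearly the whole range of the 12 livers, since control 4 was the lowest and control 3, at 11.14, lay next to the highest value of 11.16. The difference of 1% from control was 0.79 ± 0.41 (1.73-fold, adjusted p = 0.326). It was 0.46 without control 4 (adjusted p = 0.602) and 0.35 with the Gapdh difference in the fit (adjusted p = 0.866).

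In subfamily 2a, Cyp2a1 hydroxylates steroids and is known as higher in females. It read 9.64, 9.13, 9.54 and 9.28 in control and 9.86, 10.24, 9.48 and 9.92 with 0.1% wakame, with 9.17, 9.66, 9.53 and 9.81 in the 1% diet. In the 0.1% diet 3 of 4 livers lay above every control, and the difference was 0.48 ± 0.19 (1.39-fold, adjusted p = 0.370), against 0.15 ± 0.19 with 1% wakame (adjusted p = 0.736). Cyp2a2, its male-biased neighbour, lay between 12.17 and 12.64 in all livers and differed from control by 0.06 ± 0.11 with 1% wakame. Cyp2b3, the 1 measured member of subfamily 2b, lay between 12.76 and 13.03. Cyp2b1 and Cyp2b2 were not among the members, so these values do not show how they behaved. Its difference from control was -0.03 ± 0.07 with 1% and -0.05 ± 0.07 with 0.1% wakame, with no call in either. The other subfamily members on the array with 1 symbol, Cyp2b12 and Cyp2b21, were flat.

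Subfamily 2c had 7 members, all measured, and 4 of them lay higher and 3 lower with 1% wakame. Cyp2c12, the steroid sulphate hydroxylase known as the female-specific form in rats, had the widest spread. It read 11.55, 10.90, 13.18 and 13.25 in control, 13.18, 13.06, 12.14 and 12.07 with 0.1% and 9.61, 11.88, 12.44 and 8.57 with 1% wakame. In the 1% diet 2 of 4 livers lay below every other liver of the study, and the other 2 lay among the controls, so the diets overlapped. The values spanned 25.6-fold over the 12 livers. The 1% diet differed from control by -1.59 ± 0.85 (3.02-fold lower, adjusted p = 0.348) and from the 0.1% diet by -1.98 ± 0.85 (3.96-fold lower, adjusted p = 0.697). Without 1% wakame 4, the difference from control was -0.91 (adjusted p = 0.564), and with the Gapdh difference in the fit it was -2.55 (adjusted p = 0.313).

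Cyp2c13, next to Cyp2c12 among the members in gene order and male-biased, stayed between 12.81 and 13.38 in all 12 livers. Its SD within diets was 0.16, against 1.30 for Cyp2c12, although their promoter windows printed above are the most alike of the Cyp2c windows. Cyp2c11, the main male-specific P450 of rat liver, read 13.41, 13.74, 13.69 and 13.62 in control, 13.56, 12.90, 13.71 and 13.64 with 0.1% and 13.75, 13.66, 13.56 and 13.57 with 1% wakame. Apart from 0.1% wakame 2 these livers lay between 13.41 and 13.75, and the 1% diet differed from control by 0.02 ± 0.16 (adjusted p = 0.969). Cyp2c7, a retinoic acid hydroxylase higher in females, differed by -0.005 ± 0.16 with 1% wakame and Cyp2c6v1 by 0.09 ± 0.16. Cyp2c22 differed by 0.22 ± 0.21 (adjusted p = 0.636), and by 0.54 with the Gapdh difference in the fit (adjusted p = 0.313). Cyp2c23, which makes epoxides of arachidonic acid, differed by 0.09 ± 0.12 with 1% and by 0.25 ± 0.12 with 0.1% wakame (adjusted p = 0.472 for the latter).

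Subfamily 2d oxidizes many basic drugs, and its 3 measured genes all lay higher with 1% wakame. Cyp2d3 read 11.91, 11.94, 11.97 and 11.90 in control, 12.18, 12.05, 11.88 and 12.08 with 0.1% and 12.14, 12.28, 12.05 and 12.07 with 1% wakame. All 4 livers of the 1% diet lay above the controls, which ran from 11.90 to 11.97. The difference was 0.20 ± 0.07 (1.15-fold), with the lowest adjusted p of the members (0.163). With the Gapdh difference in the fit it was 0.08 (adjusted p = 0.651). Cyp2d4 differed by 0.46 ± 0.24 through its brighter probe set (adjusted p = 0.331) and by 0.27 ± 0.12 through its dimmer one (adjusted p = 0.244), and Cyp2d2 by 0.11 ± 0.09 (adjusted p = 0.568). The brighter Cyp2d4 value was 0.29 without control 4 (adjusted p = 0.602) and 0.31 with the Gapdh difference in the fit (adjusted p = 0.790).

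Cyp2e1 metabolizes ethanol, acetone and paracetamol and sits in hepatocytes around the central vein. It read 12.16, 12.40, 12.59 and 11.77 in control, 12.57, 14.01, 12.52 and 13.43 with 0.1% and 12.46, 13.52, 13.04 and 12.58 with 1% wakame. The highest control lay above 2 livers of each wakame diet. The difference from control was 0.90 ± 0.35 with 0.1% (1.87-fold, adjusted p = 0.370) and 0.67 ± 0.35 with 1% wakame (1.59-fold, adjusted p = 0.338). Without 0.1% wakame 2, the highest of all, the first was 0.61 (adjusted p = 0.558), and with the Gapdh difference in the fit the second was 0.41 (adjusted p = 0.819). Glul, glutamine synthetase, which marks the innermost hepatocytes around the central vein, was at 9.74 ± 0.53 in control, 10.06 ± 0.36 with 0.1% and 10.51 ± 0.16 with 1% wakame (SD, n = 4 each). Of the other varying markers of that zone, Oat was at 10.64 ± 0.88, 11.70 ± 0.52 and 10.73 ± 1.07, and Axin2 at 7.06 ± 0.30, 6.81 ± 0.14 and 7.04 ± 0.30 in the same order. The 3 markers did not share a direction, and their part in the values of Cyp2e1 was not tested.

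The remaining measured genes of family 2 were Cyp2t1, Cyp2j3, Cyp2j4 and Cyp2u1. Cyp2t1 lay at 8.08, 8.14, 8.33 and 7.86 in control and at 8.29, 8.51, 8.40 and 8.29 with 1% wakame, where 2 of 4 livers were above every control, a difference of 0.27 ± 0.11 (1.20-fold, adjusted p = 0.239). Cyp2j3, an arachidonic acid epoxygenase, differed by 0.02 ± 0.25 and 0.01 ± 0.23 through its 2 probe sets with 1% wakame, and by -0.25 ± 0.25 and -0.28 ± 0.23 with 0.1%. Cyp2j4 differed by 0.05 ± 0.16 with 1% and -0.18 ± 0.16 with 0.1% wakame. Cyp2u1 was the 1 member probe set where the 2 wakame diets did not overlap, with 7.40 to 7.55 at 1% above 7.09 to 7.30 at 0.1% (difference 0.28 ± 0.17, adjusted p = 0.824), and 1.82% of all varying probe sets lay apart in that direction. Its controls, at 7.24, 7.62, 7.65 and 6.77, spanned both diets.

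Family 3 holds the steroid 6-beta-hydroxylases and the broadest drug oxidizers. Cyp3a18, male-biased, read 11.25, 12.37, 12.36 and 12.33 in control, 11.51, 7.08, 12.67 and 12.47 with 0.1% and 12.94, 12.72, 12.46 and 12.26 with 1% wakame. One liver, 0.1% wakame 2, lay at 7.08 with the next lowest at 11.25 (control 1), and with it the values spanned 58.2-fold. The 0.1% diet differed from control by -1.15 ± 1.02 (adjusted p = 0.730) with that liver and by 0.13 ± 0.35 (adjusted p = 0.958) without it. The 1% diet differed from control by 0.51 ± 1.02 (adjusted p = 0.859), with 3 of 4 livers above every control, and by 0.24 without control 1 (adjusted p = 0.957).

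Cyp3a23-3a1, the form most strongly induced through PXR, read 12.57, 12.60, 12.86 and 13.34 in control, 12.72, 11.38, 12.82 and 12.97 with 0.1% and 13.10, 13.25, 12.85 and 12.92 with 1% wakame. Again 0.1% wakame 2 stood alone below the rest, and the difference of that diet from control was -0.37 ± 0.32 with it and -0.002 ± 0.18 without it. With 1% wakame it was 0.19 ± 0.32 (adjusted p = 0.819). Cyp3a2, male-biased, differed from control by 0.03 ± 0.32 with 1% and 0.02 ± 0.32 with 0.1% wakame, with its lowest livers at 11.89 (0.1% wakame 2) and 12.00 (1% wakame 1). Cyp3a9, known as higher in females, ranged from 7.79 in control 1 to 10.89 in 1% wakame 4, and its diet means of 9.50 ± 1.20 in control, 9.68 ± 0.53 with 0.1% and 9.31 ± 1.20 with 1% wakame (SD, n = 4 each) lay well within that spread.

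**Figure D3:**
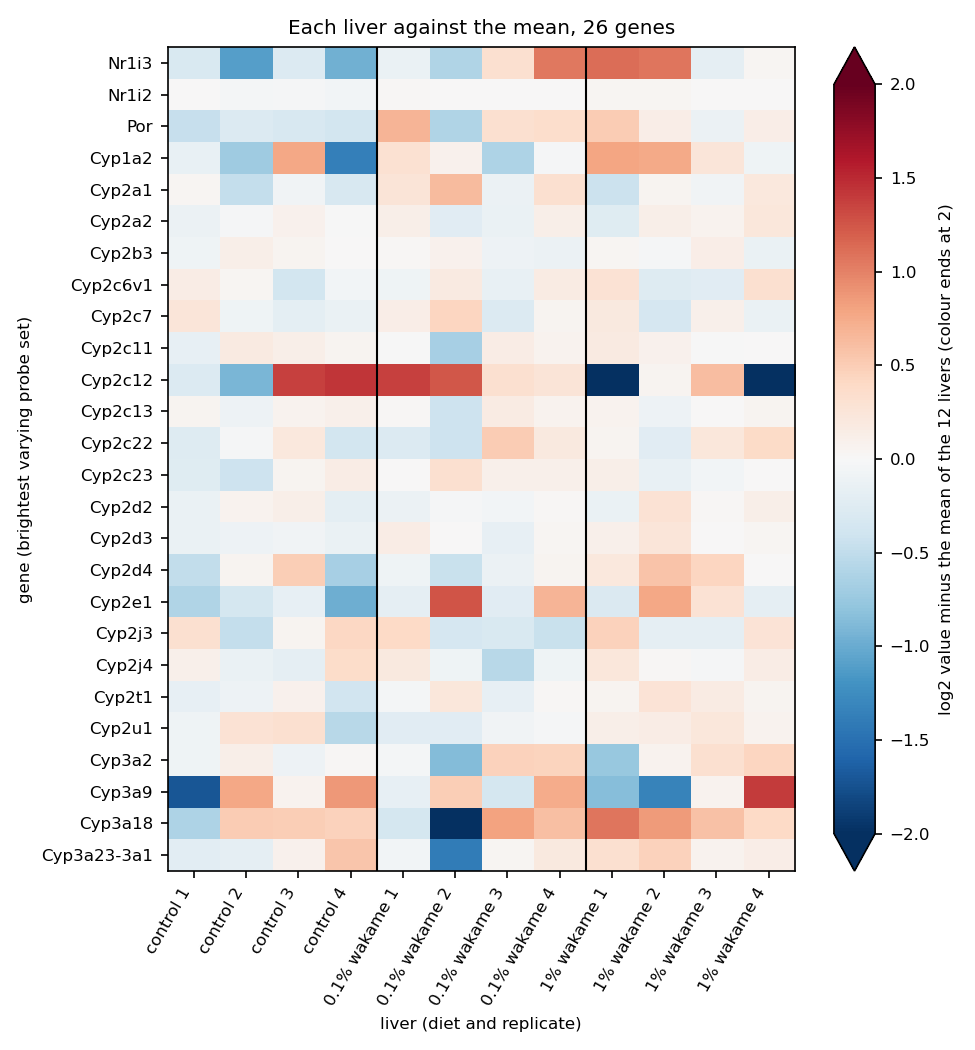
Log2 value of each liver minus the mean of the 12 livers for the 26 measured genes (rows, brightest varying probe set) and 12 livers (columns, black lines between diets), with colours ending at 2 log2. The liver 0.1% wakame 2 is blue for Cyp3a18 and Cyp3a23-3a1 and red for Cyp2e1 and Cyp2c12, and Nr1i3 is blue in all 4 control livers.

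A pair of livers, 0.1% wakame 2 and control 4, stood at the ends of the range for more member genes than the other livers. The liver 0.1% wakame 2 was the lowest of the 12 for 7 of the 26 genes (Cyp2c11, Cyp2c13, Cyp2c22, Cyp3a18, Cyp3a2, Cyp3a23-3a1 and Por) and the highest for 4 (Cyp2a1, Cyp2c23, Cyp2c7 and Cyp2e1). It was thus at an extreme for 42.3% of the genes, against 19.9% of all varying probe sets. The liver control 4 was at an extreme for 10 of the 26 genes (38.5%, against 17.9% of all), as the lowest for Cyp1a2, Cyp2d2, Cyp2d4, Cyp2e1, Cyp2t1, Cyp2u1 and Nr1i2. The other 10 livers were at an extreme for 0 to 6 genes each. These counts describe the livers and were given no test. Without 0.1% wakame 2, limma called 0 member probe sets for 0.1% wakame against control (lowest adjusted p = 0.138), 2 had an unadjusted p under 0.05 (Nr1i3 and Por), and 21 of 28 lay higher in place of 17.

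The sex-biased genes divided in part in that liver. Of the 5 genes listed as higher in male rats, 0.1% wakame 2 was the lowest of the 12 livers for 4, and for Cyp2a2 it was at 12.18, just above the lowest value of 12.17 in 1% wakame 1. Of the 4 genes listed as higher in female rats, it was the highest for Cyp2c7 (14.13) and Cyp2a1 (10.24). Counted from the lowest, it ranked 9 of 12 for Cyp2c12 (13.06) and 8 of 12 for Cyp3a9 (9.99). Of all varying probe sets, 11.9% were lowest and 7.99% highest in 0.1% wakame 2. No other liver was the lowest for more than 1 of the male-biased genes. With 1% wakame the male-biased genes differed from control by -0.02 to 0.51 log2 and the female-biased by -1.59 to 0.15, and none of the 9 passed in any comparison. The transcriptional repressor gene Bcl6 rose by 5.21 ± 0.77 with 1% wakame (adjusted p = 0.0152) and Onecut1, which encodes HNF6, fell by 3.17 ± 0.54 (adjusted p = 0.0268). Both act on sex-biased P450 genes in rodents. Onecut1 read 10.97, 11.07, 10.91 and 12.23 in control, 9.82, 10.53, 8.63 and 9.18 with 0.1% and 9.48, 7.66, 7.23 and 8.15 with 1% wakame. Over the 12 livers Onecut1 and Cyp2c12, a pair chosen after their values were seen, correlated at r = 0.33 (permutation p = 0.298) and rho = 0.28 (permutation p = 0.378), at 0.35 without the 2 livers farthest from the median of Onecut1, and at -0.13 after the diet means were subtracted.

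**Figure D4:**
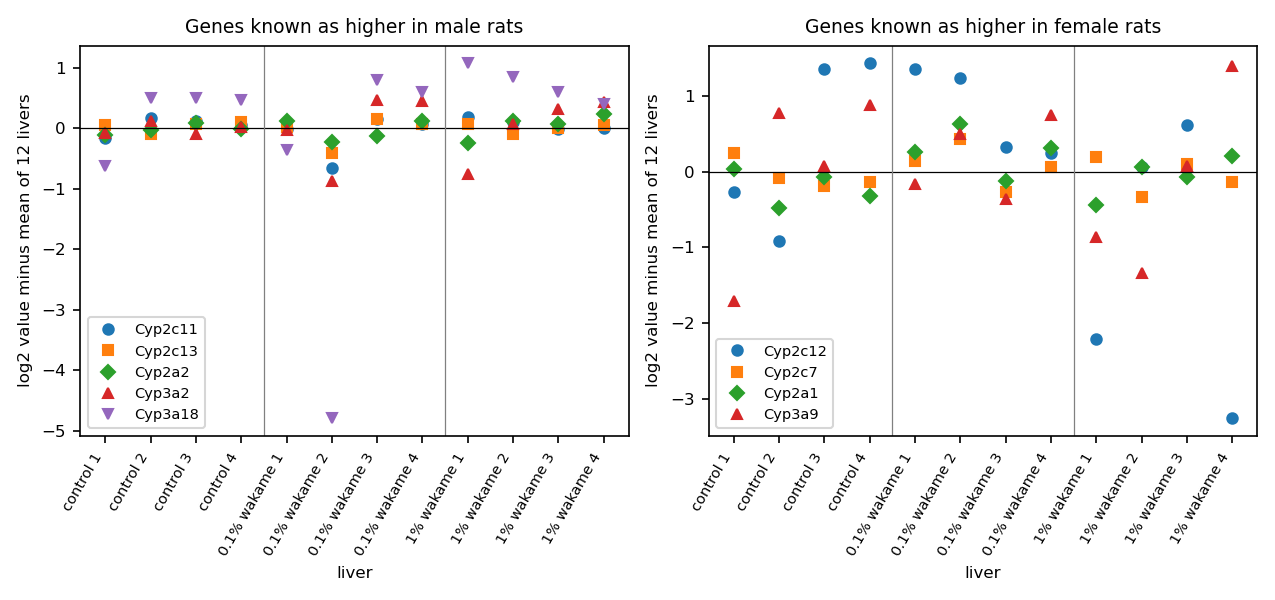
Log2 value of each liver minus the mean of the 12 livers for 5 genes known as higher in male rats (left) and 4 known as higher in female rats (right), with vertical lines between diets and different vertical scales. Cyp3a18 is far below the rest in 0.1% wakame 2, and Cyp2c12 is low in 1% wakame 1 and 1% wakame 4.

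The members differed widely in their spread between livers of one diet. The SD within diets ran from 0.02 log2 (Nr1i2) to 1.55 (Cyp3a18), with a median of 0.26, against a median of 0.21 for all 3240 varying probe sets. Cyp3a18, Cyp2c12 and Cyp3a9, at 1.55, 1.30 and 1.03, lay above the 95th percentile of all varying probe sets (0.82). Cyp2d3 (0.10), Cyp2b3 (0.10) and Cyp2d2 (0.14) were among the steadiest.

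**Figure D5:**
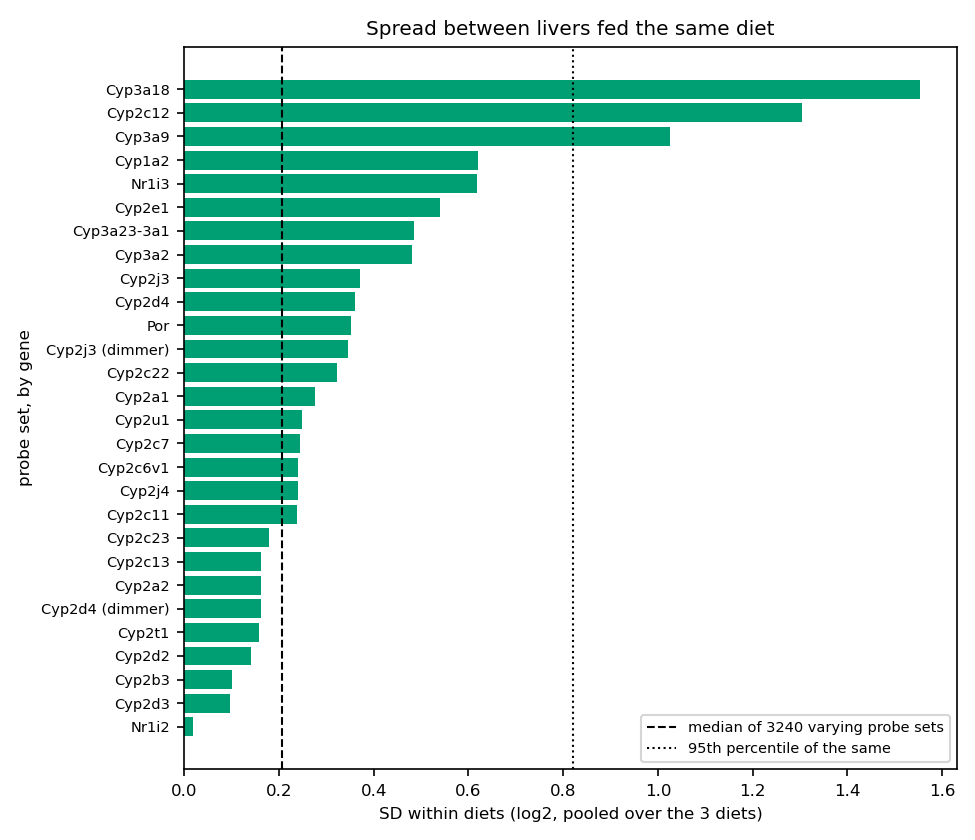
SD of log2 values between livers of the same diet, pooled over the 3 diets, for the 28 varying probe sets of the 26 measured genes, with the median (dashed) and the 95th percentile (dotted) of the 3240 varying probe sets. Cyp3a18, Cyp2c12 and Cyp3a9 lie beyond the dotted line.

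Each measured member was set against Nr1i3 and against Por over the 12 livers, in 49 correlations, and none passed after Benjamini-Hochberg adjustment. Por and Nr1i3 correlated at r = 0.69 (permutation p = 0.0156, adjusted p = 0.381) and rho = 0.78 (permutation p = 0.00401, adjusted p = 0.196). The value was 0.65 without 1% wakame 1 and 2, which lay farthest from the median of Nr1i3, and 0.50 after the diet means were subtracted. Nr1i2 and Nr1i3 correlated at r = 0.75 (permutation p = 0.00485, adjusted p = 0.238) and rho = 0.66 (permutation p = 0.0234, adjusted p = 0.383), at 0.56 without the same livers and at 0.48 within diets. The Nr1i2 values in this correlation spanned only 0.09 log2. Within diets Por varied with Cyp2c11 at r = 0.86 and with Cyp3a18 at r = 0.83, values in which 0.1% wakame 2, the lowest liver for all 3 genes, takes part. Over all 12 livers these were r = 0.51 and rho = 0.45 (permutation p = 0.0659 and 0.146, adjusted 0.466 and 0.585), and r = 0.49 and rho = 0.59 (permutation p = 0.0761 and 0.0483, adjusted 0.466 and 0.424). Without 0.1% wakame 1 and 2 they were 0.47 and 0.71.

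Of 19 listed genes that supply P450s with haem or further electrons, 11 varied and 0 passed with limma in any comparison. For 1% wakame against control 4 of the 11 lay higher, where 44.9% of all varying probe sets did, and the median of the 11 was -0.01 log2. Fech, which inserts iron into haem, was at 0.27 ± 0.14 (adjusted p = 0.331) and Alad, of porphyrin synthesis, at 0.20 ± 0.09 (adjusted p = 0.246). Only Alad of the 11 had an unadjusted p under 0.05 in that comparison, where 18.5% of all varying probe sets did. Cpox was at -0.17 ± 0.10 and the cytochrome b5 gene Cyb5b at -0.07 ± 0.20. A list of 41 receptors, partners and regulators held 17 varying genes, and 15 without Nr1i2 and Nr1i3. Of these 15, 9 lay higher with 1% wakame (median 0.08), where 44.9% of all varying probe sets did. Bcl6 passed upward and Onecut1 downward, where 1.67% of all varying probe sets were called. As the list was written with earlier results of these data known, these 2 calls say nothing about the list as a whole. Gadd45b, a coactivator of CAR, was at 0.56 ± 0.16 with 1% and 0.58 ± 0.16 with 0.1% wakame (adjusted p = 0.110 and 0.203), and the corepressor gene Ncor1 at -0.45 ± 0.14 and -0.46 ± 0.14 (adjusted p = 0.130 and 0.228).

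A list of 30 targets of CAR, PXR and the Ah receptor held 18 varying genes, and 17 without Por. Of these 17, 5 lay higher with 1% wakame (median -0.17), where 44.9% of all varying probe sets did. With 0.1% wakame 9 lay higher (median 0.08), where 44.1% of all did, and limma called 0 in any comparison. At an unadjusted p under 0.05 there were 5 for 1% wakame, 1 of them higher (18.5% of all varying probe sets in either direction, 8.4% upward). For 0.1% wakame there were 5, 0 of them higher (11.5% of all in either direction, 4.72% upward). Nqo1, a quinone reductase induced through the Ah receptor and NRF2, was at -0.98 ± 0.42 with 1% and -1.82 ± 0.42 with 0.1% wakame (adjusted p = 0.251 and 0.190). Tiparp, an Ah receptor target, was at -0.16 ± 0.07 and -0.29 ± 0.07 (adjusted p = 0.263 and 0.196). Gstm1, a glutathione transferase, was at -0.20 ± 0.08 and -0.28 ± 0.08 (adjusted p = 0.202 for each). Slco1a4, a PXR-responsive organic anion uptake carrier, was at 1.06 ± 0.33 with 1% wakame (adjusted p = 0.131) and 0.21 ± 0.33 with 0.1% (adjusted p = 0.866).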

How the data were processed

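Liver RNA of 12 rats was measured on 1 array each. Per the labels' protocols, labelling copied the RNA from its 3-prime end. The authors deposited a table of log2 values, whose scale was inferred from the values. The submitters' processing notes name R 2.7.2. How probes were background-corrected, normalized and summarised is not given in the sources used here. Control probe sets of the manufacturer (57) were left out. The 3240 of 31042 other probe sets with an SD above 0.01 were fitted with limma 3.58.1 (R 4.3.3), with a mean per diet over all 12 arrays and moderated variances with a trend. Benjamini-Hochberg adjustment ran over all 3240, with a threshold of 0.05. Every member with a varying probe set is named, the brightest standing for the gene, and at most 4 genes per pathway list, those with the smallest F-test p. Correlations used 100000 permutations. The fit was tested on simulated data. Members and lists were chosen with earlier results of these data known. Replicate numbers did not pair the arrays. The number of arrays limits the precision. Alternatives were the probe sets tested, SD limits of 0.05 and 0.1, no trend, quantile normalization, median centring, no dim probe sets, 1 probe set per gene, 2 diets per fit, a replicate block and each array left out, and, chosen after seeing the data, the Gapdh 3-prime minus 5-prime difference as a covariate.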

Additional observations from a re-analysis of the deposited data

Results flagged for a closer look

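In 84 groups of 4 livers (28 probe sets in 3 diets), 3 held a liver far from the other 3 by Dixon's criterion, where chance gives about 1 in 20 groups. Cyp3a18 read 11.25 in control 1, against 12.33 to 12.37 in the other controls. Cyp3a23-3a1 read 11.38 in 0.1% wakame 2, against 12.72 to 12.97 in the other livers of that diet. The brighter probe set of Cyp2j3 read 10.29 in 0.1% wakame 1, against 9.45 to 9.58 in the others, and its dimmer probe set read 8.52 there against 7.76 to 7.93.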

How the results depend on the processing

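No member probe set was called in any comparison under any of the alternatives run, the replicate block included (0 calls). There were 527 alternative values per comparison. The sign changed in 39 for 1% wakame against control, 29 for 0.1% against control and 22 for 1% against 0.1%. In the same order, 15, 15 and 18 of the 28 probe sets kept their sign under every alternative. The lowest adjusted p of a member was 0.103 (Cyp1a2 without control 3), 0.138 (Por without 0.1% wakame 2) and 0.512. Nr1i3, Por and Cyp2d3 stayed higher in 1% wakame than in control under all alternatives. The count over all varying probe sets depended on the setting. For 1% wakame against control it was 54, and it was 9 with all probe sets tested, 10 with 1 probe set per gene, 28 with 2 diets per fit, 12 with the replicate block, 4 with the Gapdh difference in the fit, and 7 to 36 with 1 array left out. For 0.1% against control it was 2, and 5 with all probe sets, 1 with quantile normalization and with median centring, 0 with 1 probe set per gene, with 2 diets per fit and with the replicate block, and 0 to 3 with 1 array left out. For 1% against 0.1% it was 0, and 6 with all probe sets and 0 to 1 with 1 array left out. The cause was not tested. Same-numbered arrays of different diets deviated from their diet means with r from -0.12 to 0.09 over 12 pairs, so the numbers were taken as names only. With no background or detection call, values near the arrays' median may lie at background.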
